A study of Homo sapiens with 5 samples.

Results

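The 10 genes described here encode subunits, substrate receptors and cofactors of 2 families of ubiquitin ligases that drive the cell cycle. They are SKP2, CKS1B, CKS2, FBXW7, BTRC, FBXW11, CUL1, SKP1, RBX1 and FZR1. They were taken by name from 18417 genes measured by a probe of their own, a probe being a set of array features summarised to 1 value. Where a gene had several probes, the one that read highest on average across the arrays stands for it. All 10 had such a probe, and all 10 were above background on all 5 arrays, background being the 95th percentile of 341 olfactory receptor genes on each array.

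RNA came from cells labelled as the human leukemia line RS4;11, which carries a rearranged MLL gene. Cells on 3 arrays had received 10 uM SB216763, a small molecule that inhibits the kinase GSK-3, for 20 h. Cells on 2 arrays were controls and had received the solvent DMSO. Nothing in the labels says that the arrays of a group came from separate cultures, so the p-values reflect array-to-array spread, part or all of which may be technical.

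SCF ligases are built on the cullin CUL1, with the RING protein RBX1 at one end, which recruits the ubiquitin-loaded enzyme, and the adaptor SKP1 at the other, which holds an exchangeable F-box protein. The F-box protein picks the substrate: SKP2, with the small cofactor CKS1B, takes the CDK inhibitor p27, while FBXW7, BTRC and FBXW11 bind phosphorylated motifs, several of them written by GSK-3. The anaphase-promoting complex, APC/C, is a larger RING ligase, and FZR1, also called CDH1, is the coactivator that directs it in late mitosis and G1, when SKP2 and CKS1B are among its substrates. These are events on proteins, while the arrays measured transcripts only.

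Of the 10 genes, the probes that stand for CKS1B and SKP2 fell with SB216763 and none rose. The CKS1B probe was 1.68-fold lower and the SKP2 probe 1.43-fold lower. For CKS1B this is the probe with the highest mean, which may measure a copy of the gene elsewhere in the genome. The third of the 3 CKS1B probes differed by only -0.19 and did not pass (adjusted p = 0.473 by limma over all probes). The other 8 genes, among them the core subunits CUL1, SKP1 and RBX1, did not pass the test. Their differences lay between -0.15 and 0.43 on the log2 scale. Differences here are SB216763 minus control in log2 expression, with n = 3 SB216763 and n = 2 control arrays, tested with limma and adjusted by Benjamini-Hochberg over all 18417 genes at a threshold of 0.05. The 2 lower genes of 10 stand beside 5.92% of all genes lower and 7.21% higher. The median difference of the 10 was -0.12, against 0.00 over all genes. The SB216763 and control values did not overlap for 5 of the 10, where 41.4% of all genes did not overlap.

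**Figure D1:**
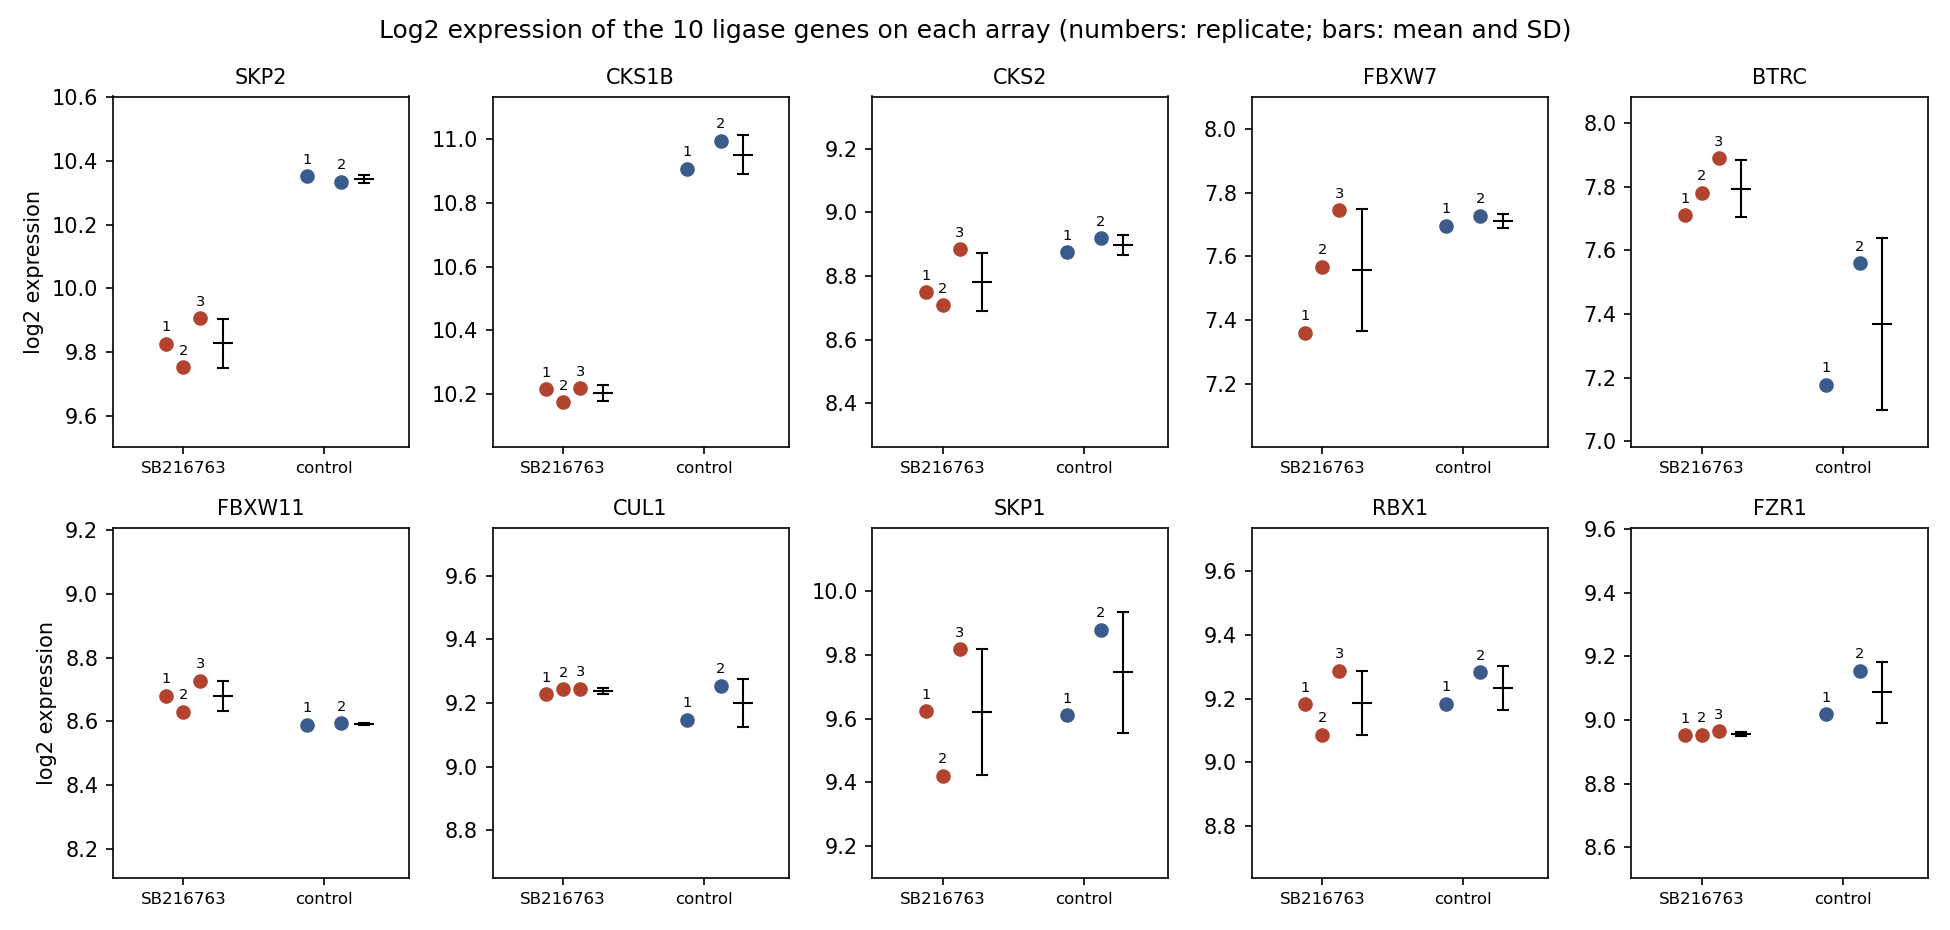
Log2 expression (vertical axes, each spanning the same width) of the 10 genes on each array, with SB216763 left of control; numbered points are replicates, and bars give the mean and SD. CKS1B and SKP2 show the widest gap between groups relative to the spread of their points, and BTRC has control arrays that lie far apart.

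SKP2 is the F-box protein that delivers p27 to SCF. Its log2 expression was 9.83, 9.75 and 9.91 on the SB216763 arrays, against 10.35 and 10.33 on the control arrays. Every SB216763 array lay below both control arrays, and the controls lay within 0.02 of one another. The difference was -0.52 (SE 0.08, 95% interval -0.71 to -0.33, adjusted p = 0.00743 by limma).

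CKS1B is the small protein that SKP2 needs in order to hold phosphorylated p27. Its log2 expression was 10.21, 10.17 and 10.22 on the SB216763 arrays, against 10.91 and 11.00 on the control arrays. The 3 SB216763 values were nearly equal, with an SD of 0.03, and all lay below both controls. The difference was -0.75 (SE 0.08, 95% interval -0.93 to -0.57, adjusted p = 0.00158 by limma), which ranked 169 among the 18417 genes by p.

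Both genes lost their calls with either control array left out. Only 1 control then remained and limma passed almost no gene of all those tested, so the loss does not set these genes apart. Without control replicate 1 the difference was -0.79 for CKS1B and -0.51 for SKP2, and without control replicate 2 it was -0.71 and -0.53. The sizes moved little: over the 5 fits with 1 array left out, the difference lay between -0.79 and -0.71 for CKS1B and between -0.55 and -0.48 for SKP2.

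CKS1B was named by 3 probes, which did not show the same size of change. The second by mean read 10.06, 10.00 and 10.08 on the SB216763 arrays, against 10.69 and 10.81 on the control arrays, a difference of -0.70 (adjusted p = 0.0153 by limma over all probes). The third read 9.93, 10.19 and 10.09 on the SB216763 arrays, against 10.11 and 10.40 on the control arrays, so that its groups overlapped, with a difference of -0.19 (95% interval -0.50 to 0.12, adjusted p = 0.473). The mean of the 3 probes gave -0.55 (adjusted p = 0.00671). RefSeq lists 7 numbered pseudogenes of CKS1B, and the positions of the probes were not examined. On chromosome 5 the probe numbers rose with position, from SKP2 (8104912) over the second SKP1 probe (8114152) to FBXW11 (8115765). The probe that stands for CKS1B, 8112327, falls within that run, while CKS1B lies on chromosome 1. That probe may therefore measure a copy elsewhere, and which copies the other 2 measured is uncertain too. Whether CKS1B itself fell, and by how much, is uncertain.

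**Figure D2:**
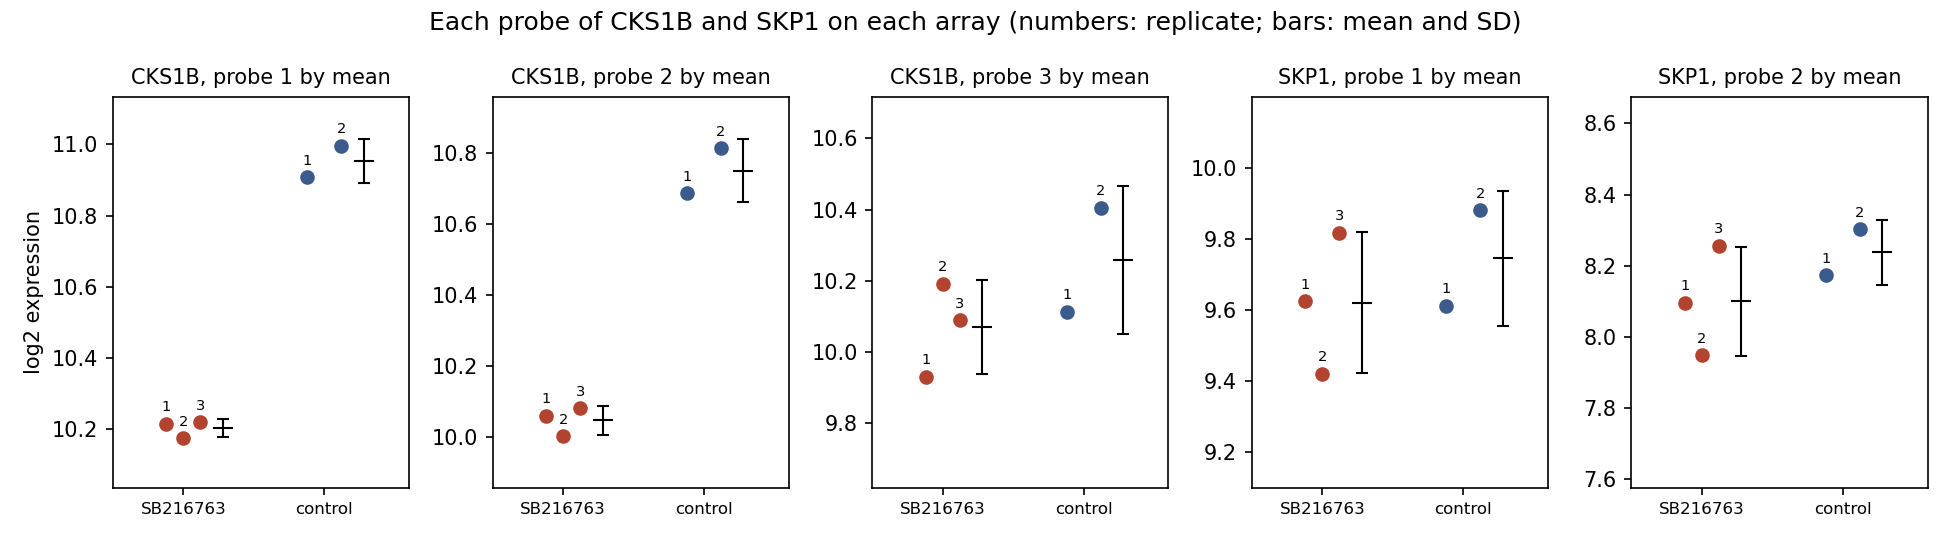
Log2 expression of each probe of CKS1B and SKP1 on each array, SB216763 left of control, probes ordered by mean; numbered points are replicates and bars give the mean and SD. For CKS1B the first and second probes separate the groups by 0.75 and 0.70, while the third overlaps; both SKP1 probes overlap.

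CKS2, the paralogue of CKS1B and a subunit of cyclin-dependent kinase complexes, did not pass. It read 8.75, 8.71 and 8.88 on the SB216763 arrays, against 8.87 and 8.92 on the control arrays, with 1 SB216763 array inside the range of the controls. The difference was -0.12 (SE 0.09, 95% interval -0.32 to 0.08, adjusted p = 0.459 by limma). Set against CKS2 within each array, CKS1B was lower by 0.63 more on the SB216763 arrays than on the controls, in all 6 pairings of an SB216763 with a control array. An exact two-sided permutation test of that gap gave p = 0.2, the smallest that 3 against 2 arrays allow. The gap was taken with the CKS1B probe of highest mean only. It was not computed with the third CKS1B probe, whose groups overlapped and whose difference of -0.19 lay close to the -0.12 of CKS2.

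The promoters of the SKP2, CKS1B and CKS2 genes are shown because the first 2 were called lower and the paralogue CKS2 was not. Each runs from 250 bases before to 50 bases after the start of the gene in RefSeq on GRCh38.p14, 5′ to 3′ on the plus strand. SKP2 lies at chr5:36151861-36152160, CKS1B at chr1:154974431-154974730 and CKS2 at chr9:89310945-89311244. Capitals mark CCAAT and the CHR element TTTGAA, a motif of cell cycle promoters, on either strand.
SKP2: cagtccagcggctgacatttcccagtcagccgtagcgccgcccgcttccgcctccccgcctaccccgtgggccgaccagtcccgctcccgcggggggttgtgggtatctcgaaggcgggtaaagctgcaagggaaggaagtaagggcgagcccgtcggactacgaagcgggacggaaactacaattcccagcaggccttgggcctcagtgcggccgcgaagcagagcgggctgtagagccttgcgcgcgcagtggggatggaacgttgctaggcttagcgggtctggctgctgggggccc
CKS1B: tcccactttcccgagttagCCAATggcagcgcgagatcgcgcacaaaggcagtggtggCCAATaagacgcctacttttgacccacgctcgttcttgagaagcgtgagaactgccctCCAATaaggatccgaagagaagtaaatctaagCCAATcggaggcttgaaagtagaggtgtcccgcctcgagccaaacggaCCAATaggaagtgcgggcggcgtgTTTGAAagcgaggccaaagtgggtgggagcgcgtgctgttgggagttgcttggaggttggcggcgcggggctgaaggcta
CKS2: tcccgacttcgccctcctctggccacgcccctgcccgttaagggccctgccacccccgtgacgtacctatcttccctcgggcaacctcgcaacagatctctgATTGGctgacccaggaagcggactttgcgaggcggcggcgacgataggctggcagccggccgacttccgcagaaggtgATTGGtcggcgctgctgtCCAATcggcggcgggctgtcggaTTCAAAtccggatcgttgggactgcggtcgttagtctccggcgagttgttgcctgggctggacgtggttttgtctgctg
The CKS1B window held CCAAT at 5 places and the CHR letters once, at -30 to -25 relative to the start. The CKS2 window held CCAAT at 3 places, of which 2 were on the minus strand, and the CHR letters once on the minus strand, at -29 to -24. The SKP2 window held neither. Of 34796 RefSeq promoter windows of this length, 34.6% held CCAAT and 15.2% held TTTGAA. Of the 9 of the 10 genes that had a window, 4 held CCAAT (CKS1B, CKS2, FBXW7 and CUL1) and 4 held TTTGAA (CKS1B, CKS2, FBXW7 and FZR1), so both motifs also stood before genes that did not pass. Some genes have several windows, while the shares over all promoters count single windows. Counted that way, CCAAT was in 5 and TTTGAA in 4 of the 17 windows of these 9 genes. The E2F pattern TTTNNCGC was in none of the windows of these 9 genes and in 6.86% of all windows. The E-box CACGTG was in the window of RBX1 alone and in 7.20% of all windows. The motifs searched do not overlap one another here, and a match describes letters only.

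FBXW7, the F-box protein that takes MYC and cyclin E after phosphorylation by GSK-3, read 7.36, 7.57 and 7.74 on the SB216763 arrays, against 7.70 and 7.73 on the control arrays. The SB216763 arrays spread widely (SD 0.19, n = 3), and the highest of them lay above both controls. The difference was -0.15 (SE 0.12, 95% interval -0.43 to 0.12, adjusted p = 0.470 by limma), and over the fits with 1 array left out it ran between -0.25 and -0.06. With array weights it was -0.32 (adjusted p = 0.0770).

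BTRC, or beta-TrCP1, is the receptor that takes beta-catenin and the NF-kB inhibitor after phosphorylation. It read 7.71, 7.78 and 7.89 on the SB216763 arrays, against 7.18 and 7.56 on the control arrays. Every SB216763 array lay above both controls, with an SD of 0.09 among the SB216763 arrays (n = 3), against 0.27 between the controls (n = 2). The difference of 0.43 (SE 0.12, 95% interval 0.14 to 0.71) had an unadjusted p of 0.00928 and an adjusted p = 0.0627 by limma, and so did not pass. It was 0.62 without control replicate 2 and 0.23 without control replicate 1. The adjusted p was 0.0322 when genes below background were left out, 0.0399 with a variance trend and robust settings, and 0.0382 with array weights.

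FBXW11, or beta-TrCP2, shares its substrates with BTRC. It read 8.68, 8.63 and 8.73 on the SB216763 arrays, against 8.59 and 8.59 on the control arrays. The groups did not overlap, yet the difference was 0.09 (SE 0.08, 95% interval -0.09 to 0.27, adjusted p = 0.548 by limma). Within arrays, BTRC was higher by 0.34 more than FBXW11 on the SB216763 arrays, but over the 6 pairings of arrays that gap ran from 0.06 to 0.57 (exact two-sided permutation p = 0.2, the smallest possible).

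The shared core of SCF did not pass in any of its 3 subunits. CUL1, the scaffold, read 9.23, 9.24 and 9.24 on the SB216763 arrays, against 9.15 and 9.25 on the control arrays, with all SB216763 values between the controls. Its difference was 0.04 (95% interval -0.14 to 0.22, adjusted p = 0.829 by limma), and -0.015 after median centring of the arrays. RBX1, the RING subunit, read 9.18, 9.09 and 9.29 on the SB216763 arrays, against 9.18 and 9.28 on the control arrays, a difference of -0.05 (95% interval -0.26 to 0.16, adjusted p = 0.809). The SB216763 arrays of RBX1 spread over a wider range than its controls and reached past them on both sides.

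SKP1, the adaptor between CUL1 and the F-box proteins, read 9.62, 9.42 and 9.82 on the SB216763 arrays, against 9.61 and 9.88 on the control arrays. The groups overlapped, with an SD of 0.20 over the SB216763 arrays (n = 3) and 0.19 over the controls (n = 2). The difference was -0.12 (95% interval -0.44 to 0.19, adjusted p = 0.641 by limma), so that it was measured less precisely than CUL1. The second SKP1 probe gave -0.14 (adjusted p = 0.568 over all probes). RefSeq lists 4 numbered pseudogenes of SKP1.

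FZR1, the APC/C coactivator of G1, read 8.95, 8.95 and 8.96 on the SB216763 arrays, against 9.02 and 9.16 on the control arrays. The SB216763 arrays were nearly equal and all below both controls. The difference was small and did not pass, at -0.13 (SE 0.08, 95% interval -0.32 to 0.06, adjusted p = 0.367 by limma). It was -0.20 without control replicate 1 and -0.06 without control replicate 2.

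**Figure D3:**
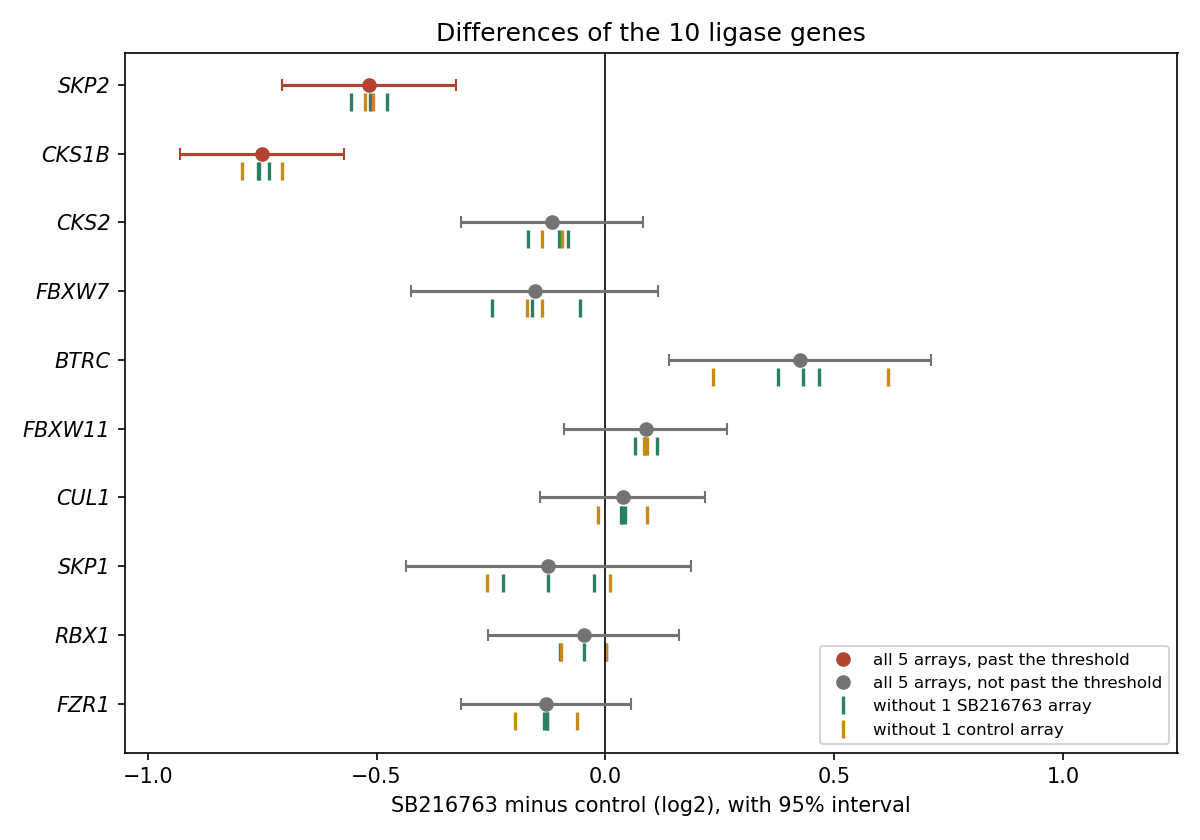
SB216763 minus control difference (horizontal axis, log2) of each of the 10 genes with its 95% interval from limma; ticks under each point give the difference with 1 array left out. CKS1B at -0.75 and SKP2 at -0.52 lie apart from 0 in every fit, BTRC moves between 0.23 and 0.62 with the control array left out, and the intervals of the others cross 0.

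Some of the spread was shared by the 10 genes. SB216763 replicate 3 read highest of the SB216763 arrays for all 10, as it did for 32.3% of all genes. Control replicate 2 read above control replicate 1 for 9 of the 10, the exception being SKP2, and for 61.9% of all genes. The array medians lay between 6.77 and 6.84, and with each array centred on its median CKS1B differed by -0.80 (adjusted p = 0.00102 by limma) and SKP2 by -0.57 (adjusted p = 0.00517).

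Among 12070 other genes above background on all 5 arrays, those closest to CKS1B in pattern were KLHDC3, MYBL2 and CD38, with root mean square distances of 0.03 log2 units over the 5 arrays after each gene's mean was subtracted. MYBL2, a cell cycle transcription factor, differed by -0.77 and KLHDC3 by -0.70. Closest to SKP2 were BCL2L11, TRUB2 and GTF2A1, each at a distance of 0.02, with differences of -0.50, -0.50 and -0.51. BCL2L11 encodes the cell death protein BIM. With 5 arrays in 2 groups, this measure is weighted by the size of the group difference.

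The genes around these ligases were grouped into lists, and the counts below leave out the 10 genes themselves. Of 19 other measured genes of the SCF and NEDD8 machinery, 2 fell and 1 rose, where 5.92% of all genes fell and 7.21% rose, and the median was -0.03. NAE1, a subunit of the enzyme that activates NEDD8 for cullins, fell by 0.36 (adjusted p = 0.0455 by limma). The ubiquitin-conjugating enzymes of SCF moved in opposite directions: CDC34 fell by 0.31 (SE 0.07), while its paralogue UBE2R2 rose by 0.46 (SE 0.08). UBE2R2 read 9.08 ± 0.08 (SD, n = 3) with SB216763 and 8.62 ± 0.00 (SD, n = 2) in controls. Of 12 other cullin genes and partners only CUL9 passed, higher by 0.43, a share close to that of all genes, and the median was 0.02. Leaving out single arrays moved both medians across 0, between -0.05 and 0.02 for the machinery and between -0.04 and 0.10 for the cullins. NAE1 and CDC34 lost their calls when p-values were adjusted over all probes. Without either control array limma called none of these 2 lists, with 2 machinery genes lower at unadjusted p under 0.05 both times. Without SB216763 replicate 1 or 3 UBE2R2 was the 1 machinery gene called, and the cullin calls 0 without SB216763 replicate 1 and 3 without SB216763 replicate 2.

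Of 39 other F-box genes 4 fell and 3 rose; over all genes 5.92% fell and 7.21% rose, and the share that rose here was close to that. Their median was 0.03, and -0.01 without control replicate 1. CCNF, or cyclin F, which restrains the cell cycle in G2, fell by 0.38 (SE 0.10, adjusted p = 0.0426 by limma). FBXO33 fell by 0.52 and FBXO25 by 0.31. FBXO32, known from muscle wasting, did not exceed background on the SB216763 arrays, which makes it at least 1.19-fold lower. FBXO42, KDM2A and FBXW4 rose by 0.57, 0.42 and 0.33. KDM2A is a histone demethylase that carries an F-box. FBXO33, CCNF, FBXO25 and FBXW4 lost their calls with p-values adjusted over all probes, and FBXW4 also under median centring. The calls of this list numbered 2 without SB216763 replicate 1, 3 without SB216763 replicate 3 and 0 without either control array, where 7 and 4 genes were lower at an unadjusted p under 0.05.

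Of 22 APC/C genes beside FZR1, 5 fell and 1 rose, where 5.92% of all genes fell and 7.21% rose. Their median was -0.13, and -0.09 without control replicate 2. The largest decreases were in checkpoint proteins that hold the complex inactive: MAD2L1 fell by 0.85 (SE 0.10) to 8.55 ± 0.13 (SD, n = 3) with SB216763, against 9.40 ± 0.14 (SD, n = 2) in controls, and BUB1B fell by 0.70 (SE 0.08). MAD2L2, an inhibitor of FZR1 and CDC20, fell by 0.42 and the subunit ANAPC15 by 0.38, while the subunit ANAPC16 rose by 0.39. Without SB216763 replicate 1 or 3 the calls numbered 3, all lower. Limma called 0 without either control array, where 8 and 5 genes were lower at unadjusted p under 0.05.

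Transcripts of known substrates were counted by the receptor that takes the protein. Of 14 substrates of SKP2, 6 fell and 2 rose, with a median of -0.31. This count and the next stand beside 5.92% of all genes lower and 7.21% higher. CDKN1B, which encodes p27 itself and is named here after its value was seen, fell by 0.51 (SE 0.10, adjusted p = 0.0148 by limma). MYC, the growth-promoting transcription factor, fell by 1.05, and cyclin A2, CCNA2, fell by 0.82. MYBL2 fell by 0.77 and cyclin E1, CCNE1, fell by 0.57. TOB1, an antiproliferative protein, and CDT1, the replication licensing factor, rose by 0.51 and 0.32, calls that both genes lost with p-values adjusted over all probes. Of 20 substrates of FBXW7, 4 fell and 1 rose, with a median of -0.20, or -0.11 without control replicate 2: beside MYC and CCNE1, cyclin E2, CCNE2, fell by 0.91 and the sterol regulator SREBF2 by 0.47. JUN did not exceed background on the control arrays, which makes it at least 1.31-fold higher. Without either control array limma called none of these genes; 6 SKP2 substrates were then lower at an unadjusted p under 0.05 in both cases, and 9 and 6 FBXW7 substrates. The SKP2 substrates called numbered 4 without SB216763 replicate 1 and 5 without SB216763 replicate 3, all lower.

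Of 22 substrates of BTRC and FBXW11, 6 fell and 2 rose, with a median of -0.10, or -0.15 without control replicate 1 and -0.05 without control replicate 2. Over all genes 5.92% fell and 7.21% rose. The phosphatase CDC25A fell by 1.10 (SE 0.08), the translation inhibitor PDCD4 by 1.08 (SE 0.12), the checkpoint mediator CLSPN by 0.80 and the kinase WEE1 by 0.65. NFKBIA, the NF-kB inhibitor itself, rose by 0.48 (SE 0.08), and NFKB2 rose by 0.64 (SE 0.16). Of 22 substrates of FZR1 beside SKP2 and CKS1B, 8 fell and 1 rose. Their median was -0.28. CDC6, which loads the replicative helicase, fell by 1.32 (SE 0.12) and GMNN, the licensing inhibitor geminin, fell by 0.85. CDC25A and CCNA2 are in this list too, and ID2 rose by 0.47. The substrate lists share members. Without either control array limma called 0 genes here, with 8 and 7 BTRC substrates and 11 and 7 FZR1 substrates lower at an unadjusted p under 0.05, and without SB216763 replicate 1 the BTRC substrates called numbered 5, all lower.

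**Figure D4:**
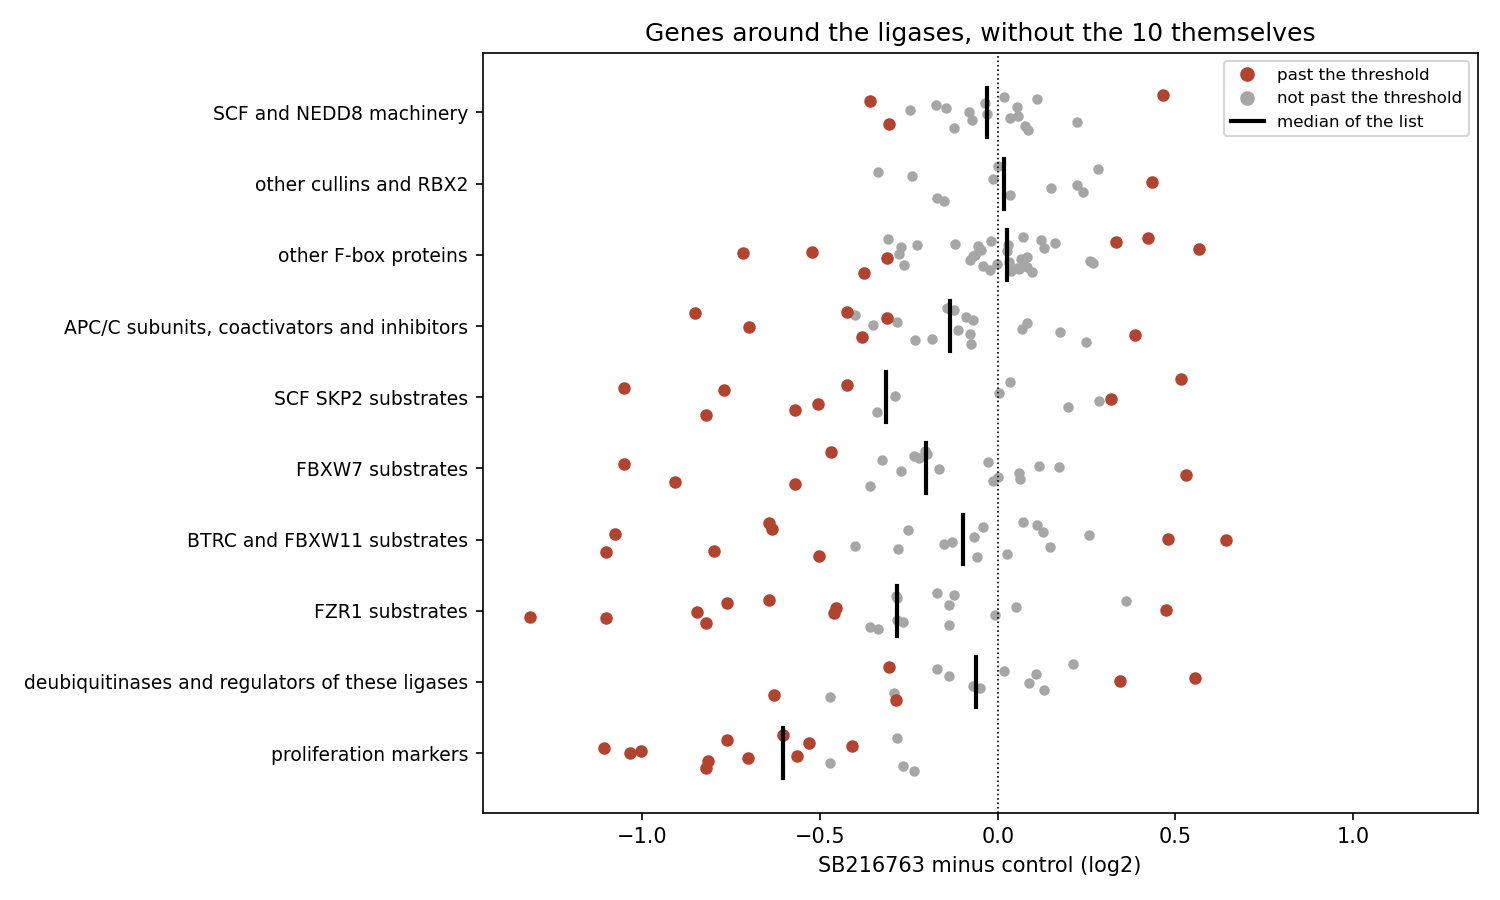
SB216763 minus control difference (horizontal axis, log2) of each gene in the lists around the ligases, with the 10 ligase genes left out; red points passed the test and black bars are list medians. The medians of the machinery lists lie near 0, those of the SKP2 and FZR1 substrates near -0.3, and that of the proliferation markers at -0.60.

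Of 16 deubiquitinases, kinases and other regulators of these ligases, 3 fell and 2 rose, with a median of -0.06, which ran between -0.11 and -0.01 with 1 array left out. Among all genes 5.92% fell and 7.21% rose. CDK2, the kinase that marks p27 for SKP2, fell by 0.63 (SE 0.11), USP7 by 0.31 and AKT1 by 0.29. NOP53, a ribosome biogenesis factor, rose by 0.56 (SE 0.08). Of the kinases that SB216763 inhibits, GSK3B transcript rose by 0.34 (adjusted p = 0.0403 by limma) and GSK3A differed by 0.09 (adjusted p = 0.540). The GSK3B call was lost under median centring (0.29, adjusted p = 0.0673 by limma) and with p-values adjusted over all probes (0.0875). It was also lost without moderation (0.147), with the replicate block (0.110), and without SB216763 replicate 1 (0.165) or 3 (0.0976). The calls numbered 2 without SB216763 replicate 1 or 3, and limma called 0 of the 16 without either control array, where 5 and 3 were lower at an unadjusted p under 0.05.

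Markers of proliferation moved in the direction of CKS1B and SKP2. Of 15 such genes 11 fell, where 5.92% of all genes fell. Their median difference was -0.60, and their mean log2 level was 9.96 to 10.13 over the SB216763 arrays, against 10.64 to 10.76 over the controls. Limma called 0 of them without either control array, with 14 and 11 lower at an unadjusted p under 0.05. Their part in the fall of CKS1B and SKP2 was not tested.

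Lineage markers moved too, and the counts here stand beside 7.21% of all genes higher and 5.92% lower. Of 14 myeloid genes 5 were called higher and 0 lower, with 13 of the 14 above background on all 5 arrays, and their mean log2 level was 8.96 to 9.03 over the SB216763 arrays, against 8.67 over the controls. LYZ, CD68, CSF3R and TYROBP rose, by 0.78, 1.00, 1.23 and 0.70, and MNDA was called but exceeded background on no array. The granule genes did not pass and were lower in value, with PRTN3 at -0.28 (adjusted p = 0.0704 by limma), MPO at -0.23, AZU1 at -0.20 and ELANE at -0.05. The median of the 14 was 0.19. Of 18 measured B cell precursor genes 8 were above background on all 5 arrays: CD79B, PAX5, VPREB3, IGLL1, CD38, IKZF1, TCF3 and CD9. PAX5, at 6.65 with SB216763 and 6.63 in controls, lay not far above background. BLNK was called higher and CD38 lower. VPREB1, RAG1, RAG2, DNTT, CD22, CD24, MME and CD34 were above it on none. RS4;11 is known as a precursor line of the B lineage. These markers were mixed in that respect, and the origin of the cells was not examined. Of 12 T and NK cell genes CD4 and NKG7 rose, while 6, among them CD3D, CD3E and CD3G, exceeded background on no array. Of 8 stromal genes VIM and ACTA2 rose, while 3 (DCN, PDGFRB and FN1) exceeded background on no array. None of 8 red cell and platelet lineage genes passed limma, and 0 of them had an unadjusted p under 0.05. Limma called no marker of these lists without either control array, where 5 and 6 of the myeloid list were higher at unadjusted p under 0.05. The part of these markers in the ligase results was not tested, and a change in the mix of cells and a change within cells cannot be told apart in bulk RNA.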

How the data were processed

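The authors deposited log2 expression values of 5 arrays in a single table; the log2 scale was inferred from their span. Affymetrix Expression Console produced them, per the submitters' processing notes. Its version, how probes were summarised, and the build are not stated in those notes. No further normalization was applied. Of 33297 probes, 19460 named exactly 1 gene in the platform annotation, 1754 several and 12083 none; the first were reduced to 18417 genes. The background of the arrays lay between 5.98 and 6.19.

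The groups, taken from the sample titles, were tested by limma 3.58.1 (lmFit and eBayes, R 4.3.3), two-sided, with standard errors and 95% intervals from the moderated fit (7.62 degrees of freedom). The number of arrays limits the precision. A gene that did not exceed background on any array of 1 group has a fold given as a lower bound against the background. In 5 simulations of this comparison on 18417 genes, 200 genes were changed. Of 1.5-fold changes 93.6% and of 2-fold changes 100% were recovered, and 6.81% of calls were unchanged genes. The simulated noise was independent and equally wide on every array, while the array weights estimated here ran from 0.31 to 8.54. These rates may therefore not carry over to the real arrays.

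The 10 genes and all lists were chosen with earlier results of these data known. Named genes were the 10, up to 4 called genes of a list in each direction by size of difference, all called genes of a list with 5 or fewer calls, GSK3A and GSK3B, and for each called gene of the 10 the 3 genes nearest in pattern. Alternatives were averaging the probes of a gene, a filter on dim genes, quantile normalization, centring, robust settings with a variance trend, array weights, no moderation, a replicate block, all probes singly, and each array left out in turn. With 1 control array left out, the other is assumed to vary like the SB216763 arrays. Limma then passed almost no gene of all those tested, so a call lost in those fits sets no gene or list apart. Promoters are from RefSeq; protein sequences were not used here. Tables used pandas 2.3.3 and plots matplotlib 3.10.9.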

Additional observations from a re-analysis of the deposited data

How the results depend on the processing

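CKS1B and SKP2 stayed lower in every setting run. The probe that stands for CKS1B, or the mean of its probes, passed the threshold in all settings that kept the 5 arrays, with differences between -0.80 and -0.55, while the dimmest of its 3 probes, tested singly, did not pass (-0.19, adjusted p = 0.473). SKP2 passed in all of them except the fit without moderation (-0.52, adjusted p = 0.0721), so that 1 of the 10 genes was called lower there. With 1 array left out, CKS1B ran between -0.79 and -0.71 and SKP2 between -0.55 and -0.48; the number of the 10 called lower ran between 0 and 2, the 0 arising without either control array, in fits with fewer arrays. BTRC passed, as the 1 of the 10 called higher, with dim genes filtered (0.43), with a variance trend and robust settings (0.43) and with array weights (0.36); its adjusted p over the settings with all arrays ran from 0.0322 to 0.286. CUL1 changed sign under median centring of the arrays (-0.015); with 1 array left out CUL1 ran between -0.016 and 0.092, SKP1 between -0.26 and 0.0094, and RBX1 between -0.099 and 0.0016. None of these 3 was called in any setting.

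Over all genes, 1328 were called higher and 1090 lower. Array weights gave 2568 and 2152, with SB216763 replicate 1 weighted 8.54 and the other 4 arrays each under 1, and no moderation gave 126 and 125. Centring gave 1048 higher and 1536 lower, 40.6% of calls higher against 54.9%, and put the median of all genes at -0.05, against 0.00. With 1 array left out the calls ran between 0 and 1680 higher and between 0 and 1179 lower. With the replicate number as a block, CKS1B differed by -0.76 (adjusted p = 0.00259 by limma) and SKP2 by -0.55 (adjusted p = 0.0119), and 941 genes were called higher and 889 lower; same-numbered arrays had deviations correlated at -0.05 and -0.10, so the numbers are not taken to pair cultures. Of 58 called genes named outside the 10 (CDKN1B added), 47 lost their call without moderation, 16 with all probes singly, 13 with the replicate block, 4 under centring, 1 under quantile normalization and 0 in the other settings with all arrays; of 290 repeats with 1 array left out 133 kept the call and 157 lost it, all 58 being lost without either control array. In these repeats 0 changed sign. List medians moved by more than the array spread in 15 of 135 repeats with all arrays and 19 of 75 with 1 left out. Signal over background did not limit the 10 genes, all of which were above background on all 5 arrays.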
